A study of Mus musculus with 2 samples.

Results

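Canonical Polycomb repressive complex 1 (PRC1) was described in mouse embryonic stem (ES) cells through 9 of its component genes: Bmi1, Pcgf2, Ring1, Cbx2, Cbx7, Cbx8, Phc1, Phc2 and Phc3. The genes were chosen by name, and every probe set that the platform annotation gives them was taken, 17 of 45101 on the array. The study hybridised total RNA to Affymetrix 3′ expression arrays of the mouse genome. It compared ES cells carrying a knockout (KO) of Dnmt1, the enzyme that keeps DNA methylation through replication, with a culture labelled as the control of that KO. There was 1 array per group, so differences cannot be judged by replicate spread and no p-value is given. The KO is named in the sample title only, while the source name of both samples describes the control. The strain, the Dnmt1 allele, the number of clones and the culture conditions are unstated in the labels.

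PRC1 is a chromatin complex that keeps developmental genes silent. A Ring1 or Rnf2 protein, paired with a PCGF protein, attaches ubiquitin to histone H2A. In the canonical form the PCGF partner is Bmi1 or Pcgf2, a CBX protein binds the H3K27 methylation laid down by PRC2, and a PHC protein polymerises through its SAM domain and helps to compact chromatin. In ES cells Cbx7 is the best known CBX subunit, and other CBX proteins take over during differentiation.

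Promoter sequence was taken from RefSeq (GRCm38.p6) for 8 of the 9 genes, as the 250 bases before each annotated start. CpG dinucleotides were counted there because loss of Dnmt1 acts on CpG methylation. The counts leave out the rest of each gene and do not show whether a site is methylated. The 10 windows of the 8 genes held 1 to 34 CpG dinucleotides, beside a median of 6 over 32851 promoters. Ring1 had 30, Cbx7 23, Cbx8 22, Bmi1 21, Phc3 12, Phc1 8 and Pcgf2 5. Phc2 has 3 annotated starts, whose windows held 13, 1 and 34 in the direction of transcription. The windows were also searched for CACGTG, the E-box core bound by Myc, Max and related factors, which reads the same on both strands and holds a CpG. The motif was picked with the ratios below known, so where its matches fall cannot bear on those ratios. It stood once in the windows of Bmi1, Phc3, Pcgf2, Cbx8 and the first start of Phc2. No match was found for Ring1, Cbx7, Phc1 or the other Phc2 starts. Of all these promoters, 6.02% held it, and of those with at least 5 CpG dinucleotides 8.58%. The 5 windows with a match are shown, with that of Ring1 as one without, from 5′ to 3′ on the gene's strand and with CACGTG in capitals.
Bmi1, chr2:18676768-18677017, plus strand: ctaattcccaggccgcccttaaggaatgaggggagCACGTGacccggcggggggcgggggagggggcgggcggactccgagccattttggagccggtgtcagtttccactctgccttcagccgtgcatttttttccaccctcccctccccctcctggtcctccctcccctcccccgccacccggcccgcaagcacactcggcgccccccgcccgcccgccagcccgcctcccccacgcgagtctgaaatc
Phc3, chr3:30969416-30969665, minus strand: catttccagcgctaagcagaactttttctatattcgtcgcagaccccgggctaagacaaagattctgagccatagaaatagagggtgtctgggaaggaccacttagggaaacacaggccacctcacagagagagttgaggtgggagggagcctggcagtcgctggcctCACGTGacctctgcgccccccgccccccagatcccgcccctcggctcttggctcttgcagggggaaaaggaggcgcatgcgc
Pcgf2, chr11:97699649-97699898, minus strand: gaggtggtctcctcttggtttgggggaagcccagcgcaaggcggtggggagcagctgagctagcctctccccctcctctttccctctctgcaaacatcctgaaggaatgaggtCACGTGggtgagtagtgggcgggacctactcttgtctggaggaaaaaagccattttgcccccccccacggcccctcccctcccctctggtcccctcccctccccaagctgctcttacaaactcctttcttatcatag
Phc2, chr4:128654452-128654701, plus strand: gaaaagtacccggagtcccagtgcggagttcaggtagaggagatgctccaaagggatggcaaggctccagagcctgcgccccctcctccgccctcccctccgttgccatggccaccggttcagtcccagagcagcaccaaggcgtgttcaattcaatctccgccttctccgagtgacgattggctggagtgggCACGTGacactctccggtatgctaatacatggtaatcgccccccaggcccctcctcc
Cbx8, chr11:119040914-119041163, minus strand: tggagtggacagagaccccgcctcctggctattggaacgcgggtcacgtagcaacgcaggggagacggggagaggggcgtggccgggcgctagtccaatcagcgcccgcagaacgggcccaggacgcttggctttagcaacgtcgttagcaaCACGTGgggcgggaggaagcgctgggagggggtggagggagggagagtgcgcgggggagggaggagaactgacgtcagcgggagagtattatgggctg
Ring1, chr17:34024681-34024930, minus strand: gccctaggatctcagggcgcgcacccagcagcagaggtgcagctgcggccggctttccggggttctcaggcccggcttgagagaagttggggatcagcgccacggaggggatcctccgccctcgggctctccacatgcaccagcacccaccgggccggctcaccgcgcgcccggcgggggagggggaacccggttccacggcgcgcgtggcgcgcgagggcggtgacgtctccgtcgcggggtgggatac
The match began 215 bases before the start in Bmi1, 137 in Pcgf2, 98 in Cbx8, 82 in Phc3 and 57 in Phc2. These letters describe the windows and say nothing of binding or methylation, which were not measured.

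The deposited values are MAS5 signals on a linear scale. The KO array was the brighter, by 1.34-fold for the median gene, a shift of 0.43 on the log2 scale, so ratios are given both relative to this shift and as deposited. Signals under an array's median were raised to that median (the floor, 60.9 on the control and 74.2 on the KO array). Where 1 of the signals is at its floor, the ratio is only a bound. The pooled SD between probe sets of one gene was 0.24 (log2, 4704 genes). It covers probe-to-probe error and neither culture nor array differences. Dnmt1 gave 1949.1 in the control and 262.1 in the KO culture, which is 9.99-fold lower after the shift is taken off. The 8 ES cell markers exceeded both floors, with summed signals of 27769 and 35238 on the control and KO arrays. Of 10 fibroblast markers, which feeder cells would bring, 5 exceeded both floors, with sums over the list of 3607 and 4358. These were Fn1 (2361.2 and 2697.9, the highest), Acta2, Thy1, Col1a2 and Col1a1, while Col3a1, Pdgfrb, Lum, Dcn and Postn were under both. Markers of differentiated progeny summed to 1013 and 1508 for primitive endoderm (6 genes, 3 above both floors, median log2 ratio 0.17 relative to the shift), 998.9 and 948.6 for neuroectoderm (5 genes, 3 above both, -0.50) and 458.4 and 620.2 for mesoderm (4 genes, 3 above both, -0.03). No marker was at 0 on either array. The part of other cells in the PRC1 values was not tested, and in bulk RNA fewer cells of a type and less RNA per cell cannot be told apart.

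By brightest probe set, the PRC1 genes lay on both sides of the shift. Bmi1, Phc3, Phc2 and Pcgf2 were brighter on the KO array by more than the shift, by 0.54 to 0.91 on the log2 scale. Phc1, Cbx2, Cbx7 and Ring1 lay a little under the shift, by 0.13 to 0.24, and Cbx8 was below the floor on both arrays. Phc1, Cbx2 and Cbx7 were within the 25th to 75th percentile of all measured genes (-0.20 to 0.19). The second Pcgf2 probe set was at 0.22, so the width of the gap between the sides depends on the probe set. None of the 8 genes with a value reached 2-fold relative to the shift in either direction, where 1.09% of 12226 measured genes passed that line upward and 0.532% downward. As deposited, Bmi1 and Phc3 were at least 2-fold higher and no gene lower, against 4.92% and 0.0982% of all genes. At 1.5-fold relative to the shift the count was also 2 higher (the same genes) and 0 lower, where 4.74% and 4.25% of all genes were called. At 1.5-fold as deposited it was 4 higher and 0 lower, against 28% and 0.474%. Of the 8 values, 7 came from signals above the floor on both arrays. Phc3 counted only through the KO array, where it was bright. Such entry favours a high ratio, and its value is a lower bound. The median log2 ratio was 0.21 over the 8 genes, midway between Cbx7 (-0.13) and Pcgf2 (0.54), and -0.13 over the 7. With 4 genes on each side of the shift, leaving out any single gene sets its sign, so it has no firm direction. Over all measured genes it was -0.0049.

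**Figure D1:**
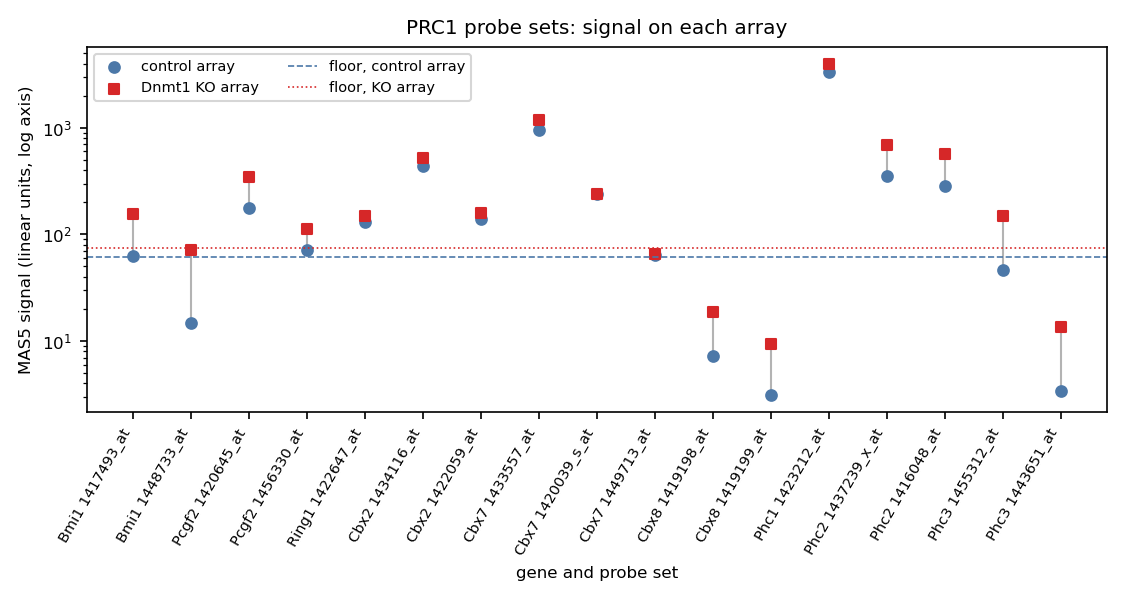
MAS5 signal (log axis) of the 17 PRC1 probe sets on the control array (circles) and the Dnmt1 KO array (squares), joined by a line, with the floor of each array as a horizontal line. Each of the 17 pairs is brighter on the KO array, the gap is wide for Bmi1, Pcgf2, Phc2 and Phc3 and narrow for Ring1, Cbx2, Cbx7 and Phc1, and 4 pairs lie under both floors.

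Each of the 17 probe sets had the higher deposited signal on the KO array, as had 77.8% of all 34945 single-gene probe sets. Of the 17, 11 exceeded both floors, 2 exceeded 1 floor and 4 exceeded neither. Among the 13 with a value, 6 lay above the shift, namely those of Bmi1, Pcgf2, Phc2 and Phc3, and 7 below it. No gene had measured probe sets on both sides of the shift, but only Pcgf2, Cbx2, Cbx7 and Phc2 had more than 1 that was measured.

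The PCGF subunits described, Bmi1 and Pcgf2, pair with the RING protein, and both were brighter on the KO array. Bmi1, also known as a repressor of the Cdkn2a locus, gave 62.1 on the control and 156.9 on the KO array in probe set 1417493_at. The control signal stood only just above its floor of 60.9, so the ratio is close to a bound. It was 1.88-fold relative to the shift (log2 0.91) and 2.53-fold as deposited (log2 1.34). A ratio at least as high was found in 1.51% of measured genes and in 1.73% of the 3187 genes of like signal (mean log2 signal within 0.5). Both shares count genes above only 1 floor, whose ratios are bounds, so they can understate how often dim genes differ this much. The other Bmi1 probe set, 1448733_at, read 14.6 and 71.7. Both values are under the floors, the KO value narrowly, so it gives no ratio, although its KO signal was also the higher.

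Pcgf2, also called Mel18, is the close paralog of Bmi1. Probe set 1420645_at gave 177.4 on the control and 345.6 on the KO array, 1.45-fold relative to the shift (log2 0.54) and 1.95-fold as deposited. The second, 1456330_at, gave 71.1 and 111.4, a log2 ratio of 0.22 relative to the shift. The probe sets shared their direction and averaged 0.38 ± 0.22 (SD, 2 probe sets), so the size of the Pcgf2 difference depended on the probe set. A ratio as high as that of the brighter one was found in 5.75% of measured genes. The Bmi1 log2 ratio exceeded that of Pcgf2 by 0.38.

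Ring1, one of the alternative H2A ubiquitin ligases of the complex, has 1 probe set, 1422647_at. It read 129.9 on the control and 147.3 on the KO array, 1.13-fold higher as deposited and 1.18-fold lower relative to the shift (log2 -0.24). By brightest probe sets this was the lowest gene ratio of the set (with the mean over probe sets Cbx7 was lower, -0.24 against -0.23), and 21.4% of measured genes had one as low. Rnf2 (Ring1B), the main ligase of ES cells and in a list of further PRC1 genes, gave 1120.2 and 1301.9 (log2 -0.21 relative to the shift), and its 3 probe sets above both floors averaged -0.37 ± 0.15 (SD). Ring1 and Rnf2 thus stood on the other side of the shift from Bmi1 and Pcgf2. The log2 ratios of Bmi1 and Ring1, the ends of the set's range in the main setting, were 1.16 apart, with the Bmi1 control signal close to its floor. That gap is a single measurement.

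The CBX subunits read the H3K27 mark. Cbx7 gave 959.7 on the control and 1181.6 on the KO array in its brightest probe set, 1433557_at, a log2 ratio of 0.30 as deposited and -0.13 once centred on the shift. Probe set 1420039_s_at gave 238.5 and 240.0, which is -0.42 relative to the shift, and 1449713_at gave 64.0 and 65.2, with the KO value under its floor (-0.21 or below). All 3 lay under the shift and none was lower as deposited. Cbx2, which can compact nucleosomes, gave 435.6 and 523.2 in 1434116_at (log2 -0.16 relative to the shift) and 140.8 and 157.2 in 1422059_at (-0.27). Its probe sets averaged -0.21 ± 0.07 (SD, 2 probe sets). That is nearer the shift than the pooled probe-set SD of 0.24, which leaves out culture and array differences. The log2 ratios of Cbx7 and Cbx2 were 0.036 apart.

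Cbx8 was not measurable on either array. Probe set 1419198_at read 7.3 on the control and 18.6 on the KO array, and 1419199_at read 3.1 and 9.4. These signals are at most 0.25 of the floor, and without detection calls a signal so low cannot be called present or absent. No ratio is given for it in the main setting.

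The PHC subunits split. Phc1, the polyhomeotic paralog with high expression in ES cells, read 3357.0 on the control and 3997.3 on the KO array in its only probe set, 1423212_at. That is 1.19-fold higher as deposited and 1.13-fold lower relative to the shift (log2 -0.17). Both signals were far above the floor, 55.1 times on the control and 53.9 times on the KO array. Phc1 thus kept nearly the same place relative to each array's median.

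Phc2 was the member with the closest agreement between probe sets above the shift. Probe set 1437239_x_at gave 354.9 and 692.1 (log2 0.54 relative to the shift, 1.95-fold as deposited). The other, 1416048_at, gave 282.4 and 571.4 (log2 0.59, 2.02-fold as deposited). Their mean was 0.56 ± 0.04 (SD, 2 probe sets). Both probe sets read the same arrays, so this SD holds no culture or array difference. The suffix of the first marks probes that can match other transcripts, and the second, without that suffix, showed the same difference. Of measured genes 5.72% had a ratio as high.

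Phc3 had 1 measured probe set. In 1455312_at the control signal of 46.8 was under its floor and the KO signal was 147.8, so it was at least 1.81-fold higher relative to the shift (log2 at least 0.85) and at least 2.43-fold as deposited. The second probe set, 1443651_at, read 3.4 and 13.4, under both floors. A ratio at least as high as the Phc3 bound was found in 1.74% of measured genes and in 1.83% of the 3335 of like signal. As for Bmi1, these shares include bounds and can be too low. The Phc2 log2 ratio exceeded that of Phc1 by 0.71, and that of Phc3 exceeded it by at least 1.03. Within the PHC family, Phc1 alone had a ratio under the shift.

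**Figure D2:**
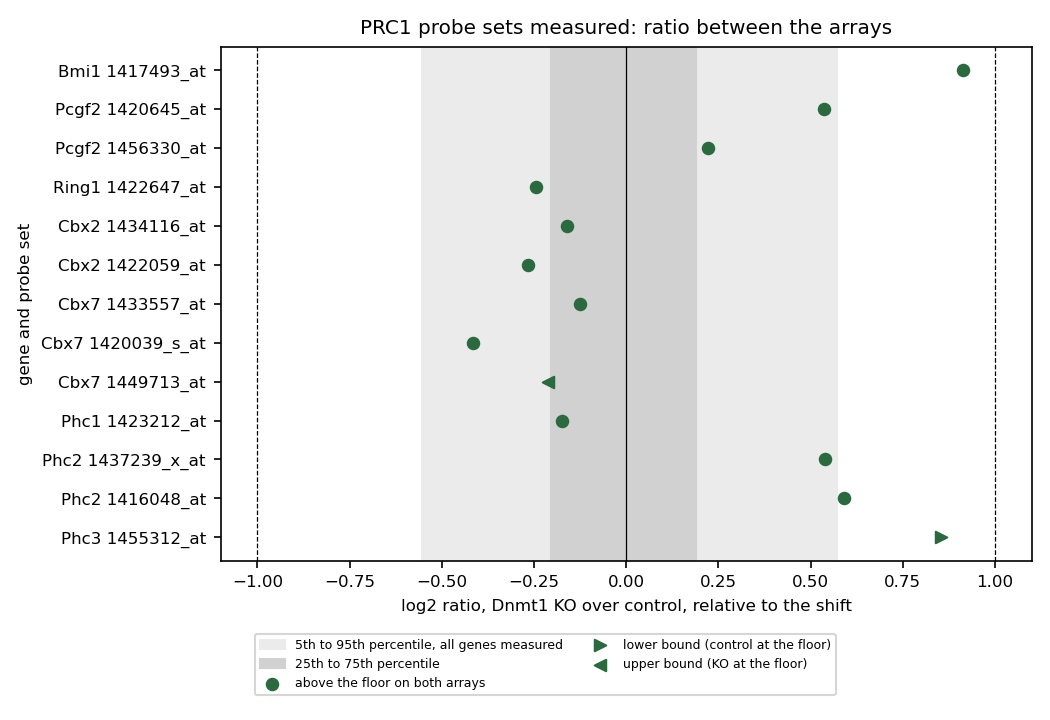
Log2 ratio of KO over control, relative to the shift, for the 13 PRC1 probe sets above the floor on at least 1 array; triangles are bounds, and shading marks the range of all 12226 measured genes. Bmi1 at 0.91, Phc3 at 0.85 or above and Phc2 1416048_at at 0.59 lie past the 95th percentile of 0.57, while Ring1, Cbx2, Cbx7 and Phc1 lie between -0.42 and -0.13.

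The 9 genes lie on 7 chromosomes, of which only chromosome 11 holds more than 1 (Pcgf2, Cbx2 and Cbx8). The median log2 ratio of these chromosomes ran from -0.037 (chromosome 3) to 0.065 (chromosome 11), small beside the ratios of Bmi1, Phc2, Phc3 and Pcgf2. The 3 named protein-coding genes on each side of every member, in RefSeq gene order, gave 48 neighbours that are not members. Of these 35 had a value, with a median of 0.07, and 1 was at least 2-fold different, where 1.09% of all genes were that much higher and 0.532% that much lower. That gene, Gpr160, an orphan receptor gene next to Phc3, read 39.0 on the control and 199.9 on the KO array, at least 2.44-fold higher relative to the shift. It had a value only through the KO array, where it was bright. It lies on the opposite strand from Phc3. The other measured neighbours of Phc3 (Sec62, Prkci and Skil) had log2 ratios of 0.02, 0.07 and -0.17.

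All 4 measured neighbours of Bmi1 lay above the shift, from 0.01 to 0.43, and all below Bmi1 itself. Commd3, which directly precedes Bmi1 on the same strand, had 0.01. Around Phc2 the 4 measured neighbours ran from -0.24 to 0.18, and around Pcgf2 the 5 ran from -0.30 to 0.24, so each PRC1 gene had the highest ratio of its window. Cbx2 and Cbx8 are adjacent, and the measured genes around Cbx8, Cbx2 included, were all under the shift (-0.62 to -0.16).

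**Figure D3:**
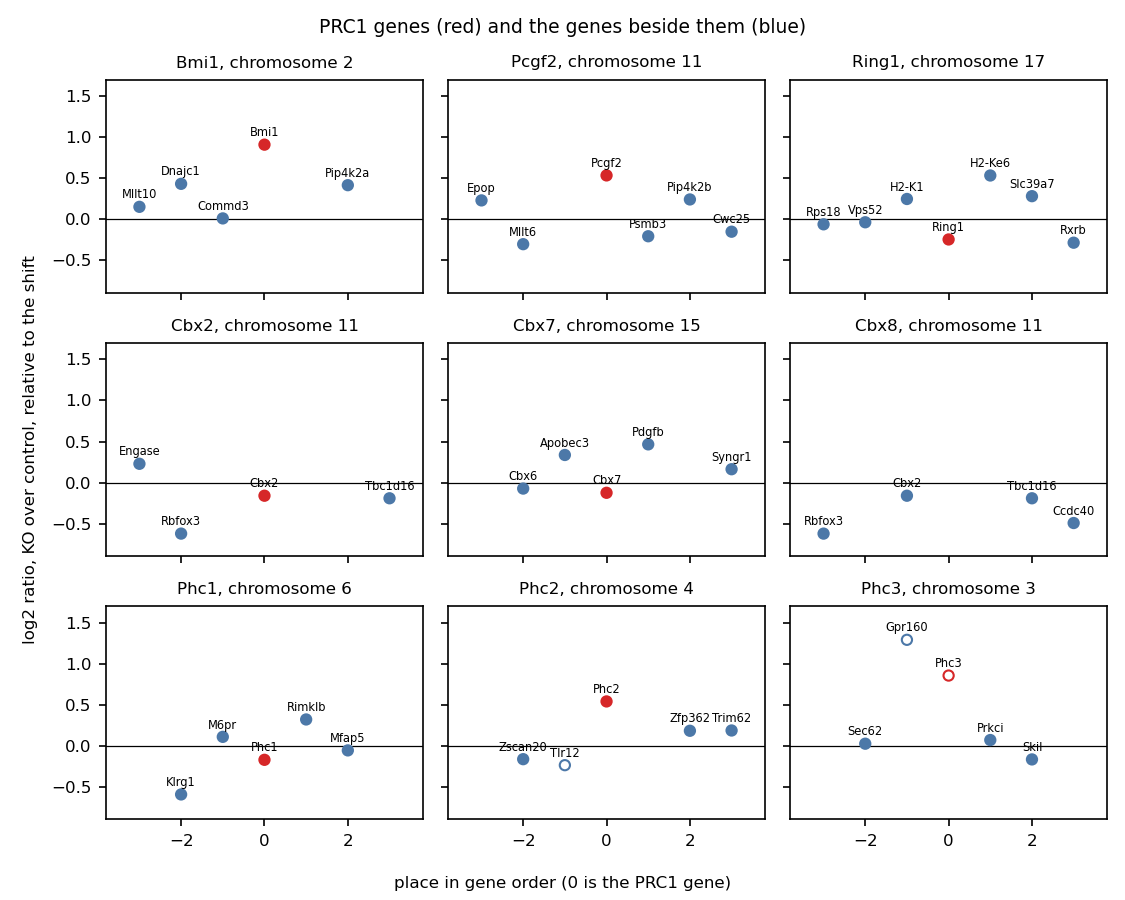
Log2 ratio of KO over control, relative to the shift, for each PRC1 gene (red) and the measured genes among the 3 on each side in gene order (blue); open points are bounds. Bmi1, Pcgf2 and Phc2 stand above all their measured neighbours, Phc3 (0.85 or above) stands beside Gpr160 (1.29 or above), and Cbx8 has no point.

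Other Polycomb genes were read from lists chosen with earlier results of these data known. Over all measured genes 49.2% lay above the shift, and the shares past 2-fold were 1.09% upward and 0.532% downward relative to it, or 4.92% and 0.0982% as deposited. Of 6 further canonical PRC1 genes 4 had a value, with 1 past 2-fold upward, 0 downward and a median of 0.03, or -0.07 over the 3 genes above both floors. The one was Scml2, which had a value through the KO array, and which is an X-linked Sex comb on midleg homolog known as a PRC1-associated germline protein. It read 33.1 on the control and 357.1 on the KO array in 1456984_at, at least 4.37-fold higher relative to the shift. Its other probe set read 67.0 and 285.9, a log2 ratio of 1.67. With the floor at the 75th percentile the Scml2 log2 ratio was 0.39, because the control value is then at a higher floor.

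Variant PRC1 holds Rybp or Yaf2 in place of the CBX and PHC subunits, often with other PCGF proteins. All 25 of its genes with a single-gene probe set had a value, 17 of them above the shift, and none passed 2-fold once the shift was taken off (as deposited, 2 did upward and 0 downward). The list median was 0.12. Bcor, the X-linked corepressor of the Pcgf1 complex, went from 234.8 on the control to 616.2 on the KO array (log2 0.97), and its 3 probe sets averaged 0.92 ± 0.11 (SD). Its relative Bcorl1 had 0.76 in 1 probe set and -0.01 or above in another. Tfdp1, a partner of E2f6, went from 2099.9 to 1559.5 (log2 -0.85) and lies on chromosome 8, whose 602 genes above both floors had a median of -0.37. Pcgf1, Pcgf5 and Pcgf6 had 0.35, 0.36 and 0.14, and Pcgf3 had -0.07, so by brightest probe set Bmi1 and Pcgf2 had the highest ratios of the 6 PCGF genes. The second Pcgf2 probe set (0.22) was under Pcgf1 and Pcgf5.

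PRC2, which lays down the mark that CBX proteins bind, had values for all 11 listed genes, with 4 above the shift and a median of -0.02. Phf1, an accessory subunit, was the only one past 2-fold, from 70.3 to 197.4 (log2 1.06), on a control signal near the floor. The core genes Ezh2, Eed and Suz12 had -0.11, -0.28 and 0.24. None of 7 genes for removal of the H2A ubiquitin was 2-fold different (median 0.12), and 5 lay above the shift. The farthest by brightest probe set were Usp3 at 0.57 (0.25 ± 0.30, SD over 3 probe sets), Asxl2 at 0.41 (0.11 ± 0.26, SD over 3) and Usp16 at 0.31. With the mean over probe sets Usp16 was at 0.02.

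Developmental regulators that Polycomb silences in ES cells are the usual readout of the complex. The list read here also held Cdkn2a and Cdkn2b, which are not developmental regulators, and not every listed gene was silent (Otx2 read 583.2 and 643.2). Of its 38 genes on the array 20 were under the floor on both arrays. Of the 18 with a value only 10 exceeded both floors. The other 8 exceeded 1 floor, 5 of them on the control array, which places them under the shift by construction. Of the 10, 4 lay above the shift and 6 below, 1 passed 2-fold upward and 0 downward, and the median was -0.13 from the shift but 0.30 on the deposited scale, so its side of 0 depended on the scaling. The one was Cdkn2b, the p15 inhibitor of cyclin-dependent kinases, which went from 125.6 to 341.4 (log2 1.02, and 0.32 with the floor at the 75th percentile). Cdkn2a, beside it on chromosome 4 and the classical target of Bmi1, went from 84.0 to 120.2 (log2 0.09).

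**Figure D4:**
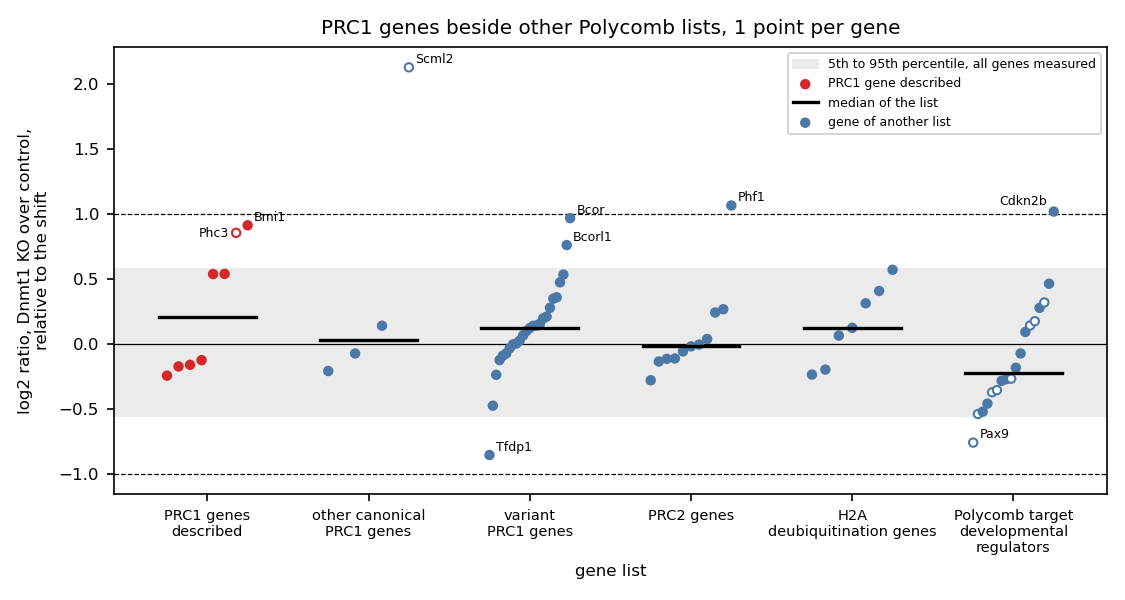
Log2 ratio of KO over control, relative to the shift, for the 8 PRC1 genes with a value (red) and for 5 further Polycomb lists (blue), 1 point per gene with the list median, bounds included, as a bar; open points are bounds and shading is the range of all measured genes. By brightest probe set, 4 PRC1 genes lie at 0.54 to 0.91 and 4 at -0.24 to -0.13, and Scml2, Phf1 and Cdkn2b pass the 2-fold line.

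Where they had a value, the 8 genes kept their sides over settings that put the arrays at a common level. These settings reuse the same pair of arrays, most with a nearly equal centre. Their agreement was thus largely fixed in advance and does not stand in for replicates. Over the main setting, quantile normalization, lowess, trimmed-mean scaling, 3 other floor settings and 2 other treatments of probe sets, Bmi1 ran from 0.91 to 1.02, Phc3 from 0.85 to 1.25, Phc2 from 0.51 to 0.59 and Pcgf2 from 0.34 to 0.57. Ring1 ran from -0.25 to -0.19, Cbx2 from -0.20 to -0.12, Cbx7 from -0.24 to -0.08 and Phc1 from -0.19 to -0.11. Bmi1, Ring1 and Phc3 had no value with the floor at the 75th percentile. As deposited, without any common level, all 8 genes were above 0.

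**Figure D5:**
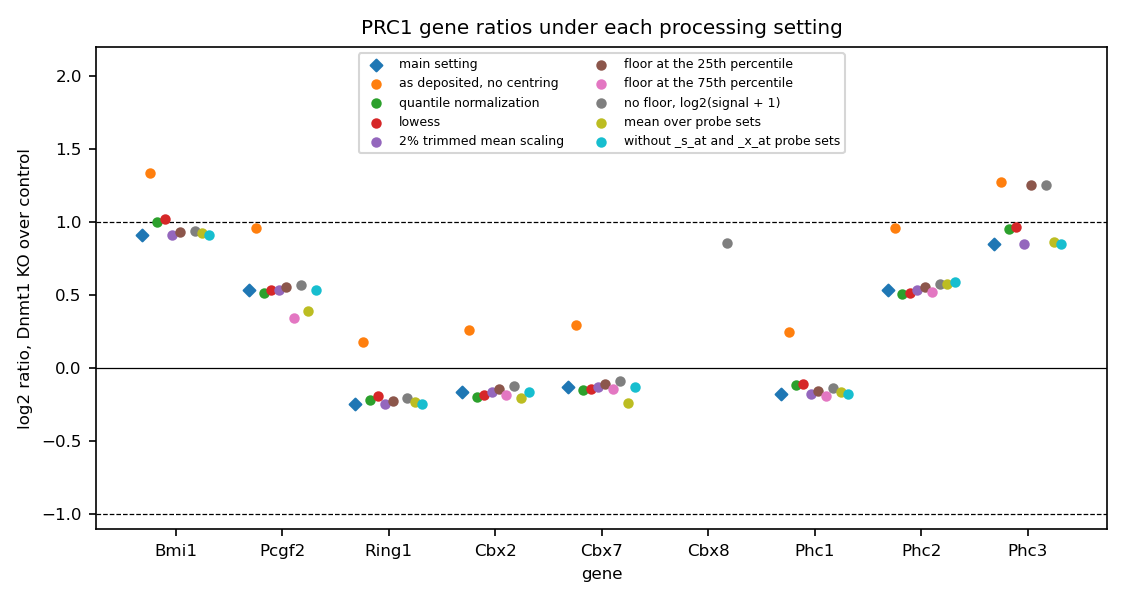
Log2 ratio of KO over control for each PRC1 gene under the main setting (diamonds) and 9 alternatives (circles), with dashed lines at 2-fold. Points as deposited sit above those of the main setting by the shift of 0.43. In every setting but as deposited, Bmi1, Pcgf2, Phc2 and Phc3 stay above 0 and Ring1, Cbx2, Cbx7 and Phc1 below it. Cbx8 has a value only without a floor, 0.86.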

How the data were processed

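Per the submitters' processing notes, the deposited intensity values were made with MAS5, which summarises perfect-match and mismatch probes into 1 linear signal per probe set. Its version, target level and calls of presence are unstated, and RNA was labelled after 1 round of cRNA synthesis per the labels' protocols. Precision is limited by having 1 array per group.

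Genes were assigned through the platform's annotation, 34945 of them with 1 gene outside the 64 control probe sets, and symbols were updated through gene identifiers to RefSeq (34741 matched). From the intensities, a floor at each array's median, a log2 ratio per probe set and the median shift of genes above both floors (10995) were computed in Python 3.11.15 with pandas 2.3.3 and statsmodels 0.14.6 (lowess). Each gene stands by its brightest probe set, and 12226 genes above the floor on at least 1 array count as measured. Calls were at 2-fold. No test between groups exists with 1 array each. The computation was tested on simulated data with large changes planted in genes well above the floor. That test did not cover small differences or signals near the floor.

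Named were all 9 members with every probe set, list genes past 2-fold or else the 3 farthest from the shift, neighbours past 2-fold, and Dnmt1. Other genes named were chosen after their values were seen. Similarity to other genes was not ranked, as 2 arrays give 1 ratio per gene. The members and lists were chosen with earlier results of these data known.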

Additional observations from a re-analysis of the deposited data

How the results depend on the processing

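No paired analysis was possible because each group has 1 array and no test was made. The count of PRC1 genes at least 2-fold higher, 0 in the main setting, was 2 as deposited, 1 with quantile normalization (Bmi1), 1 with lowess (Bmi1), 1 with a floor at the 25th percentile (Phc3) and 1 with no floor (Phc3). It was 2 at 1.5-fold and, in an alternative chosen after seeing the data, 4 at 1.5-fold as deposited. The count at least 2-fold lower was 0 in every setting run. The median log2 ratio of the PRC1 genes, 0.21, was 0.63 as deposited, -0.14 with a floor at the 75th percentile over the 5 genes left, 0.57 with no floor, where Cbx8 enters, and -0.13 over the 7 genes above both floors, the last chosen after seeing the data. The number of genes with a value, 5 to 9, changes by construction with the floor. Of the values of single genes under alternatives, 32 moved by more than the probe-set SD of 0.24, 141 moved by less, and no 2-fold value changed its sign. This tally includes named genes that are not PRC1 members, and part of it is fixed by construction. As deposited, every value moves by the shift of 0.43. Without a floor or pseudocount, genes above both floors keep their main value. Signals near the floor limit Bmi1, Phc3 and Cbx8 most.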
